A study of Mus musculus with 10 samples.

Results

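The antiviral interferon-stimulated genes are described here as a set of 38 named genes, found in the deposited gene tables by symbol. The set was chosen with earlier results of these data known. All 38 were found among the 16667 genes of the normalized count table and the 29242 genes of the TPM table, and all 38 had a mean of at least 10 normalized counts, the level at which 14203 genes were tested. The samples were visceral fat of 10 mice, 5 after sham surgery and 5 carrying KPC tumours, which are mouse pancreatic cancers grown orthotopically, that is, in the pancreas. Every mouse was C57BL/6, wild type and 10 weeks old, so tumour inoculation in place of sham surgery is the only labelled difference between the groups. The labels name neither the tumour line nor the sex of the mice, and the tissue is given as visceral adipose. Adipoq, the adiponectin gene that marks fat cells, stood at 4289.6 ± 559 TPM in the sham group and 4264 ± 673 TPM in the KPC group (SD, n = 5).

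Type I interferons are secreted by cells that sense viral or misplaced nucleic acid. They bind the receptor made by Ifnar1 and Ifnar2, and receptor-bound kinases then activate the complex ISGF3, which contains STAT2 and IRF9 and binds a promoter sequence called the interferon-stimulated response element, or ISRE. The genes switched on in this way encode proteins that cut, trap or mark viral RNA, sense nucleic acid, and conjugate or remove the ubiquitin-like protein ISG15. Interferon gamma acts through another receptor and a promoter sequence called GAS, and several of the genes answer to both. In fat, macrophages, stromal cells and fat cells can all express them.

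The response element is shown first because it stands upstream of members with large and with small differences between the groups. RefSeq promoters on build GRCm38.p6 matched 28 of the 38 members, and the 250 bases before each start site were searched on both strands for the ISRE core, spelled GAAA, then any 2 bases, then GAAA. It was found for 11 of these 28 genes (39.3%), against 3.46% of all 27025 genes with a promoter in the same table. The GAS letters TTCNNNGAA, which read the same on both strands, were found for 4 of the 28 (14.3%), against 8.13% of all genes. Both motifs were found upstream of Bst2 and Oas1a. Some of the windows overlap annotated exons. An exon covers all 250 bases of an Irf9 window, 185 of an Ifit2 window and 177 of the Dtx3l window. These genes count as without the ISRE core. Oas3 and Ifit1, which hold the core, have 114 and 105 such bases. Of the 6 stretches below, 5 hold the ISRE core, with every match in capitals, and Ifi47 is shown because it had the smallest p of all members and its window holds no match. Each is written 5′ to 3′ on the gene's own strand and ends at the base before the start site.
Ifit3, chr19:34583279-34583528, plus strand: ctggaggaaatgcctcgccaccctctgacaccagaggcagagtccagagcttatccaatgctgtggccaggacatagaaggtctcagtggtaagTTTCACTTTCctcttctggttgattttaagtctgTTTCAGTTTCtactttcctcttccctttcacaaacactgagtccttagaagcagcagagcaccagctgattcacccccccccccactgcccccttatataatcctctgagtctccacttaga
Ifit3b, chr19:34607707-34607956, plus strand: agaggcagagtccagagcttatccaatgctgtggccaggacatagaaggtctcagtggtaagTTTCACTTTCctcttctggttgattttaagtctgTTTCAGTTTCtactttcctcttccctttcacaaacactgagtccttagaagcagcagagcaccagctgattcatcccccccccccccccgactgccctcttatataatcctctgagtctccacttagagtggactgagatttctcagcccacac
Oas1a, chr5:120907526-120907775, minus strand: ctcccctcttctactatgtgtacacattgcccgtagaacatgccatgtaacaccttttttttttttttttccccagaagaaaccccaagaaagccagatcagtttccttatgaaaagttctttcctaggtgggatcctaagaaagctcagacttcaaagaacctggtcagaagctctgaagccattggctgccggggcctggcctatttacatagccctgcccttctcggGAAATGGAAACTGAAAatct
Oas1g, chr5:120887614-120887863, minus strand: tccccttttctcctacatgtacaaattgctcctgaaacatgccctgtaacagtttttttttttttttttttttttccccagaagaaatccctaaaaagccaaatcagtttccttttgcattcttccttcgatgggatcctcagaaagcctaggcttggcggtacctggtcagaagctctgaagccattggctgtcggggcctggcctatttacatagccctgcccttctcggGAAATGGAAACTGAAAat
Isg15, chr4:156200819-156201068, minus strand: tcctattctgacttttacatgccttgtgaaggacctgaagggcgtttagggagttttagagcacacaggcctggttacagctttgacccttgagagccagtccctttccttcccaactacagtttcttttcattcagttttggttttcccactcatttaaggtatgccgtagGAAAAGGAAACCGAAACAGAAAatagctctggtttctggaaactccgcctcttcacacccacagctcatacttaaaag
Ifi47, chr11:49076337-49076586, plus strand: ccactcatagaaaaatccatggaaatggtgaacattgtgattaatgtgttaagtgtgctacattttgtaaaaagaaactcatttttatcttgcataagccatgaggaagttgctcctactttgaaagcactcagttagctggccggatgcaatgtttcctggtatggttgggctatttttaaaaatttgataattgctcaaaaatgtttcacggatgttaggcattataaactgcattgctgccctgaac

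Ifit3 and its neighbour Ifit3b share their upstream sequence with matches on the other strand, and Oas1a and Oas1g share one run of overlapping matches that ends just before the start site. Isg15 holds 3 overlapping matches that begin 78, 72 and 66 bases before its start. The 11 members with the ISRE core had a median log2 difference between KPC and sham mice of 0.56, with a range of -0.28 to 1.59. The 17 matched members without it had a median of 0.31, with a range of -0.19 to 1.19, so the ranges overlap widely. A match is a description of letters and says nothing about which factor is bound.

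**Figure D1:**
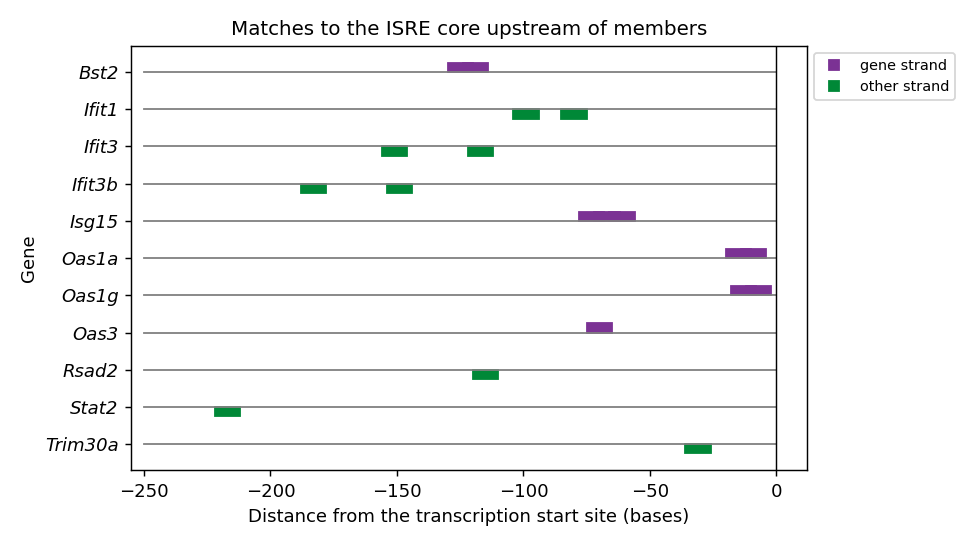
Positions of matches to the ISRE core in the 250 bases before the start site, in bases from the start site (x axis), for the 11 members that hold one (y axis). Matches above each line read on the gene's strand and those below on the other. The matches of Oas1a and Oas1g lie closest to the start and that of Stat2 farthest away.

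The members sit in families on the genome as well as in promoter sequence. On GRCm38 with GENCODE vM21, the IFIT genes lie on the plus strand of chromosome 19, from Ifit2 (34550694 to 34576419) through Ifit3 (34583531 to 34588731) and Ifit3b (34607970 to 34613401) to Ifit1 (34640871 to 34650009). Oas2 (120730333 to 120749853), Oas3 (120753098 to 120777661), Oas1g (120876142 to 120887613) and Oas1a (120896256 to 120907521) lie together on the minus strand of chromosome 5. All members are annotated as protein-coding except Mx2, a polymorphic pseudogene. The longest coding transcripts of Ifit3 and Ifit3b are 98.0% identical over 1697 aligned bases, and those of Oas1a and Oas1g are 97.5% identical over 1860. Reads divided between such copies leave each one's level uncertain, and their sums are given below. Exons of some members also overlap those of other genes. Irf9 overlaps Rnf31 on the same strand, and Herc6, Parp14 and Rtp4 each overlap another same-strand gene. Irf7 overlaps Phrf1 on the opposite strand, and Irf1, Oasl1, Usp18 and Ifi35 each overlap another opposite-strand gene. The overlaps of Dhx58, Parp9, Dtx3l and Ifi47 are given with their levels.

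Most of the antiviral genes had a higher mean in tumour-bearing mice, but no single member passed the test over all genes. The test was limma on log2(normalized count + 1), with p-values adjusted by Benjamini and Hochberg over the 14203 genes and a threshold of 0.05. It called 0 of the 38 members in either direction, where 0.0493% of all tested genes were called higher and 0.00704% lower. The log2 difference was above 0 for 35 members and below 0 for 3, where 46.9% and 53.1% of all tested genes lay above and below 0. The median member difference was 0.48, against -0.02 over all tested genes. At an unadjusted p under 0.05, 17 members (44.7%) were higher in KPC mice and 0 lower, against 7.61% and 5.91% of all tested genes. For 7 members (18.4%) the normalized counts of the KPC mice all exceeded those of the sham mice, against 2.75% of all tested genes, and for 0 members they all lay lower, against 1.28%. The 7 were Irf9, Zbp1, Trim30a, Ifitm3, Herc6, Ifi44 and Ifi47. Because this list and the gene lists below were chosen with earlier results of these data known, such shares are descriptions and no independent test. Since the tissue was measured in bulk, more cells of a type and more RNA per cell cannot be told apart.

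**Figure D2:**
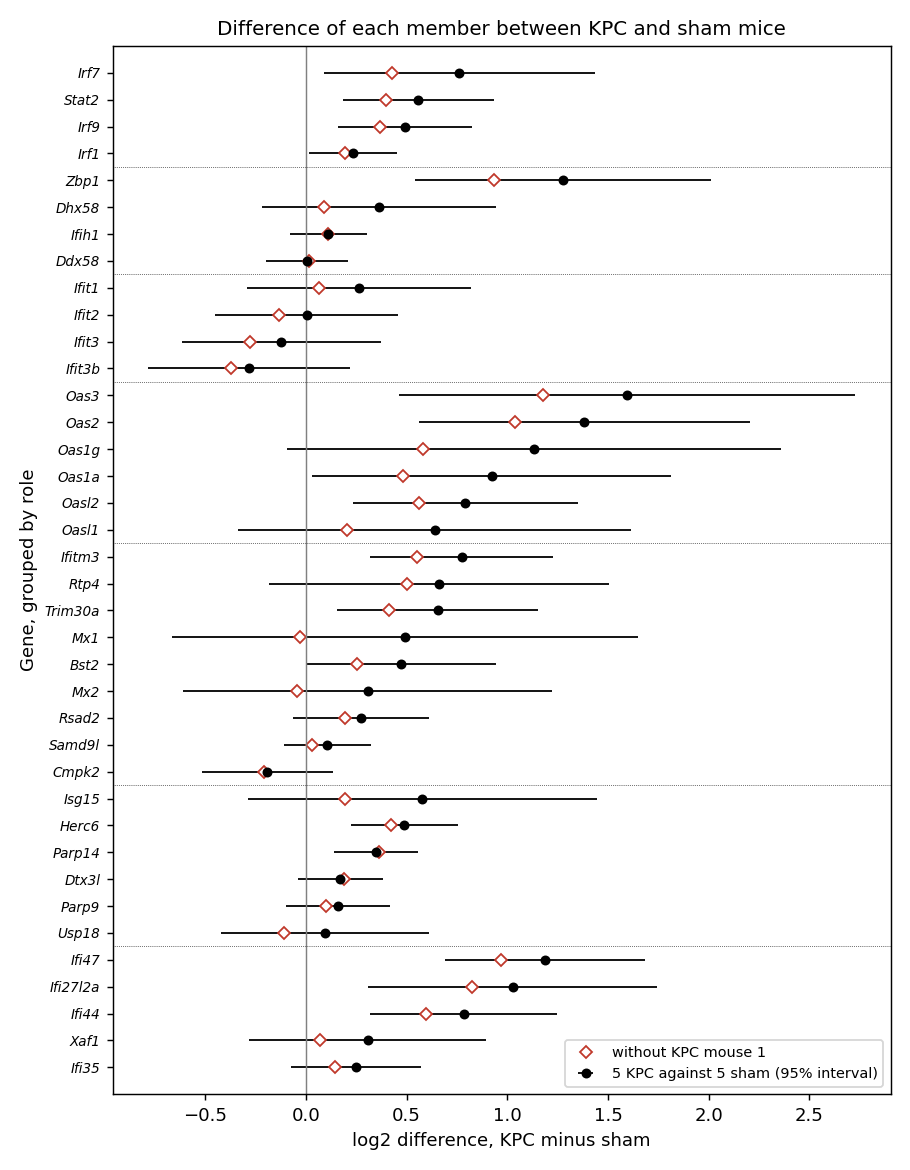
Log2 difference between KPC and sham mice (x axis) for each of the 38 members (y axis, grouped by role). Filled points with bars are the estimates from 5 against 5 mice with 95% intervals, and open diamonds the estimates without KPC mouse 1; most filled points lie right of 0, with the IFIT genes on both sides of it.

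One tumour-bearing mouse carried much of this difference. KPC mouse 1 had the highest value of all 10 mice for 32 of the 38 members, and for 12 of them it had at least 2 times the next highest mouse. The matching shares over all tested genes were not counted. Relative to the sham mean, the median member stood at 1.28 on the log2 scale in KPC mouse 1, against 0.0047 for the median of all tested genes. In KPC mice 2 to 5 the median member stood at 0.26, 0.29, 0.19 and 0.22. In sham mice 1 to 5 it stood at 0.27, -0.18, -0.10, -0.09 and 0.13, so sham mouse 1 lay level with KPC mice 2 to 5. Sham mouse 1 had the highest sham value for 26 members, and sham mouse 2 the lowest sham value for 19. The library of KPC mouse 1 also stood apart over all genes: its median correlation with the other libraries was 0.908, against 0.939 to 0.959 for the other 9. Mitochondrially encoded genes took 15.7% of its TPM and 26.3% to 33.3% of theirs.

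Without KPC mouse 1, 2 members passed the limma test, and the median difference was 0.20. They were Ifi47 and Ifitm3, where 0.465% of all tested genes were then called higher and 0.0282% lower. The difference was above 0 for 31 members and below 0 for 7, against 45.3% and 54.7% of all tested genes. At an unadjusted p under 0.05, 15 members were higher without this mouse, all of them among the 17 above, and 0 were lower, where the shares over all tested genes were 7.14% and 5.25%. The 4 other KPC mice all lay above the sham mice for 7 members, against 3.1% of all tested genes, and below them for 0, against 1.7%. Without sham mouse 1 in place of KPC mouse 1, 14 members had every KPC mouse above the sham mice, against 3.72% of all tested genes, and 0 had every KPC mouse below, against 2.32%. With all mice and limma sample weights, which give less weight to libraries with larger residuals, 7 members passed, all higher, where 1.21% of all tested genes were called higher and 0.197% lower.

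**Figure D3:**
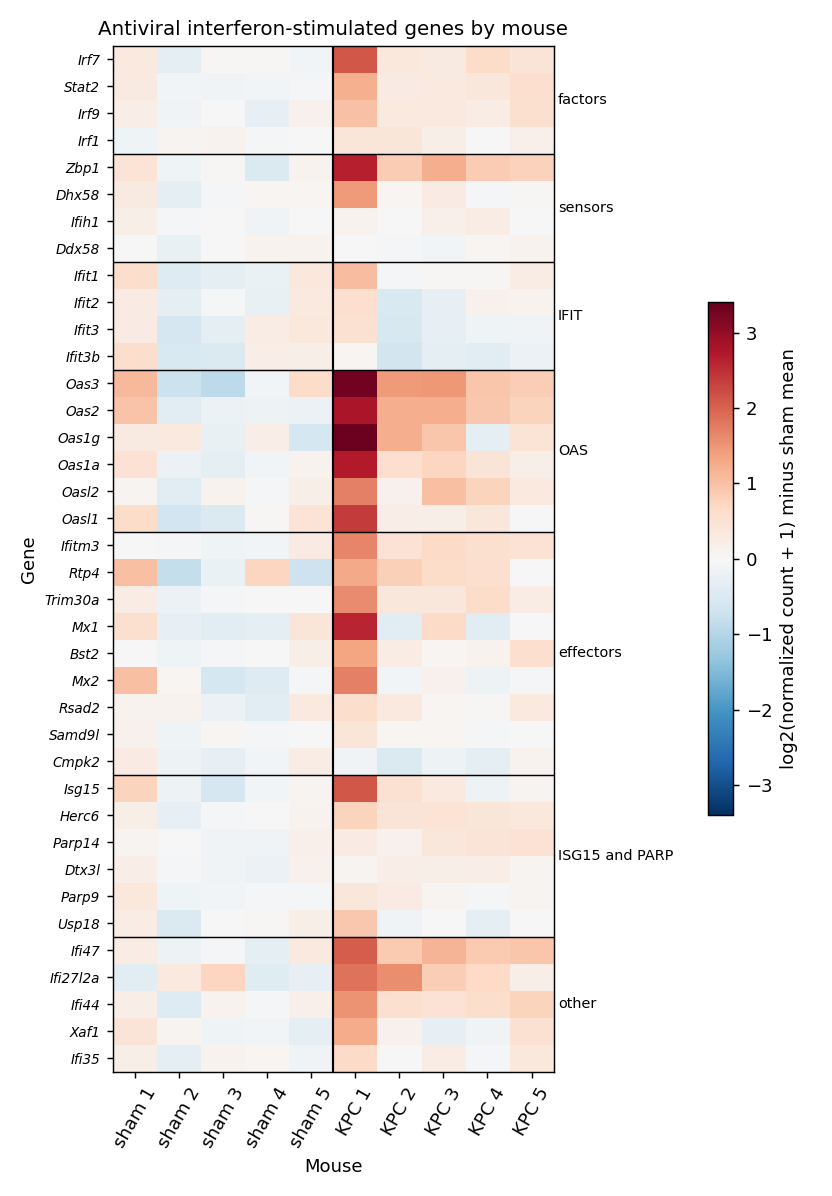
Log2(normalized count + 1) minus the sham mean (colour) for the 38 members (rows, by role) in each of the 10 mice (columns). KPC mouse 1 has the highest value for 32 genes, and the OAS rows and Zbp1, Ifi47, Ifitm3, Ifi44 and Herc6 are above the sham mean in KPC mice 2 to 5 too, except Oas1g in KPC mouse 4 and Oasl1 in KPC mouse 5.

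The transcription factors came first in the order of the pathway. All 4 member factors were higher at an unadjusted limma p under 0.05, against 7.61% of all tested genes, with 0 passing after adjustment. Irf9, the DNA-binding part of ISGF3, had TPM values of 16.7, 14.4, 17.2, 13.7 and 18.4 in sham mice 1 to 5 and of 29.6, 19.0, 19.0, 20.3 and 23.3 in KPC mice 1 to 5. The groups did not overlap. In normalized counts the margin was narrow, with KPC mouse 4 at 0.25 and sham mouse 1 at 0.23 above the sham mean on the log2 scale. The log2 difference was 0.49 ± 0.15 (SE), with a limma adjusted p of 0.243. Stat2, which encodes another part of the same complex, had TPM values of 8.53, 7.12, 7.52, 7.47 and 7.80 in sham mice 1 to 5 and of 16.5, 8.83, 9.18, 10.7 and 11.6 in KPC mice 1 to 5. Its groups were separate in TPM but overlapped in normalized counts, where sham mouse 1 lay above the lowest KPC mouse. The difference was 0.56 ± 0.17 (SE) on the log2 scale, with a limma adjusted p of 0.239.

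Irf7, the factor that amplifies type I interferon production and is itself induced by it, depended more on one mouse. It had TPM values of 20.0002, 14.0, 19.3, 18.8 and 17.2 in sham mice 1 to 5 and of 71.0, 21.4, 20.6, 29.0 and 24.2 in KPC mice 1 to 5. The groups just separated in TPM and overlapped in normalized counts. KPC mouse 1 held 2.79 times the normalized count of the next highest mouse. The log2 difference was 0.76 ± 0.31 (SE; limma adjusted p = 0.328) and 0.43 ± 0.13 without KPC mouse 1 (limma adjusted p = 0.211). Irf1, a factor induced by interferon gamma as well as type I interferon, had TPM values of 26.5, 34.6, 37.8, 32.3 and 34.3 in sham mice 1 to 5 and of 40.6, 41.1, 35.8, 35.0 and 37.0 in KPC mice 1 to 5. Here KPC mouse 1 did not stand out, sham mouse 1 was the lowest, and the log2 difference was 0.23 ± 0.10 (SE; limma adjusted p = 0.341).

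Among the 4 nucleic acid sensors, only Zbp1 had an unadjusted p under 0.05, where 7.61% of all tested genes were higher at this level. Zbp1, which binds left-handed nucleic acid and can trigger necroptosis, had TPM values of 13.2, 9.51, 11.6, 7.87 and 11.9 in sham mice 1 to 5 and of 62.6, 18.4, 23.6, 20.5 and 18.6 in KPC mice 1 to 5. The groups were fully separate, and KPC mouse 1 held 2.68 times the next highest count. The fold difference was 2.42 (95% interval 1.46 to 4.04), with a limma adjusted p of 0.174. Ddx58, which encodes the cytosolic RNA sensor RIG-I, had TPM values of 10.4, 9.65, 12.3, 13.01 and 13.2 in sham mice 1 to 5 and of 10.6, 10.6, 10.3, 12.8 and 12.8 in KPC mice 1 to 5. The groups overlapped fully and the fold was 1.00 (95% interval 0.873 to 1.15; limma adjusted p = 0.988). Ifih1, the gene of the long RNA sensor MDA5, had a fold of 1.08 (95% interval 0.945 to 1.24). Dhx58, the gene of LGP2, a helicase that tunes both sensors, had a log2 difference of 0.36, or 0.09 without KPC mouse 1, and it shares exon sequence with an opposite-strand transcript.

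The IFIT and OAS families, both antiviral effectors acting on RNA, had differences of unlike size. IFIT proteins bind viral RNA that lacks the host's cap modifications, and OAS enzymes make a second messenger that activates the nuclease RNase L. The 4 IFIT genes had a median log2 difference of -0.06 and 0 of 4 had an unadjusted p under 0.05. Among the 6 OAS genes the median was 1.03, and 4 of 6 had an unadjusted p under 0.05, all higher. Over all tested genes 7.61% were higher and 5.91% lower at this level. For 0 of the 6 OAS genes did every KPC mouse lie above every sham mouse, against 2.75% of all tested genes. The difference between the families is a description and was not tested.

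Ifit1 had TPM values of 7.87, 4.30, 5.04, 5.21 and 7.82 in sham mice 1 to 5 and of 11.4, 5.36, 5.64, 6.41 and 6.99 in KPC mice 1 to 5. KPC mouse 1 was the highest, and the other 4 lay among the sham mice. The log2 difference was 0.26 ± 0.25 (SE; limma adjusted p = 0.677). Ifit3b had TPM values of 9.16, 4.61, 5.05, 8.15 and 8.11 in sham mice 1 to 5 and of 6.66, 4.17, 5.11, 5.61 and 5.90 in KPC mice 1 to 5. Even KPC mouse 1 lay below 3 of the sham mice, and the log2 difference was -0.28 ± 0.23 (SE; limma adjusted p = 0.605). Ifit2 and Ifit3 had differences of 0.00 and -0.12, and 3 of the 4 IFIT genes lay below 0 without KPC mouse 1. The sum of Ifit3 and its copy Ifit3b was 31.0 ± 8.22 TPM in the sham group and 26.9 ± 6.81 TPM in the KPC group (SD, n = 5).

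Oas3, the member of the OAS family with the longest product, had the largest difference of all 38 members. It had TPM values of 0.674, 0.200, 0.192, 0.334 and 0.561 in sham mice 1 to 5 and of 3.21, 0.915, 0.936, 0.711 and 0.631 in KPC mice 1 to 5, low levels throughout. In TPM only KPC mouse 5 lay below sham mouse 1. The fold was 3.02 (95% interval 1.38 to 6.63), with a limma adjusted p of 0.255. Oas2 stood at 2.52 ± 0.941 TPM in the sham group and 7.02 ± 4.71 TPM in the KPC group (SD, n = 5), or 4.93 TPM without KPC mouse 1. Its log2 difference of 1.38 ± 0.37 (SE) had a limma adjusted p of 0.186, the smallest in the family.

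KPC mouse 1 was also the highest for the other OAS genes. Oas1a had a log2 difference of 0.92 and Oas1g of 1.13, and without this mouse they had 0.48 and 0.58. The sum of these near copies was 8.36 ± 1.11 TPM in the sham group and 20.8 ± 20.2 TPM in the KPC group (SD, n = 5), and 11.8 ± 1.78 TPM in KPC mice 2 to 5. Oasl2, an OAS-like gene, had a difference of 0.79 (0.56 without KPC mouse 1). Oasl1, a translational repressor of Irf7, had TPM values of 2.62, 1.196, 1.43, 2.05 and 2.74 in sham mice 1 to 5 and of 9.35, 2.13, 2.07, 2.67 and 1.92 in KPC mice 1 to 5. Only KPC mouse 1 lay above the sham range, and the log2 difference of 0.64 ± 0.44 (SE; limma adjusted p = 0.546) was 0.21 without it.

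**Figure D4:**
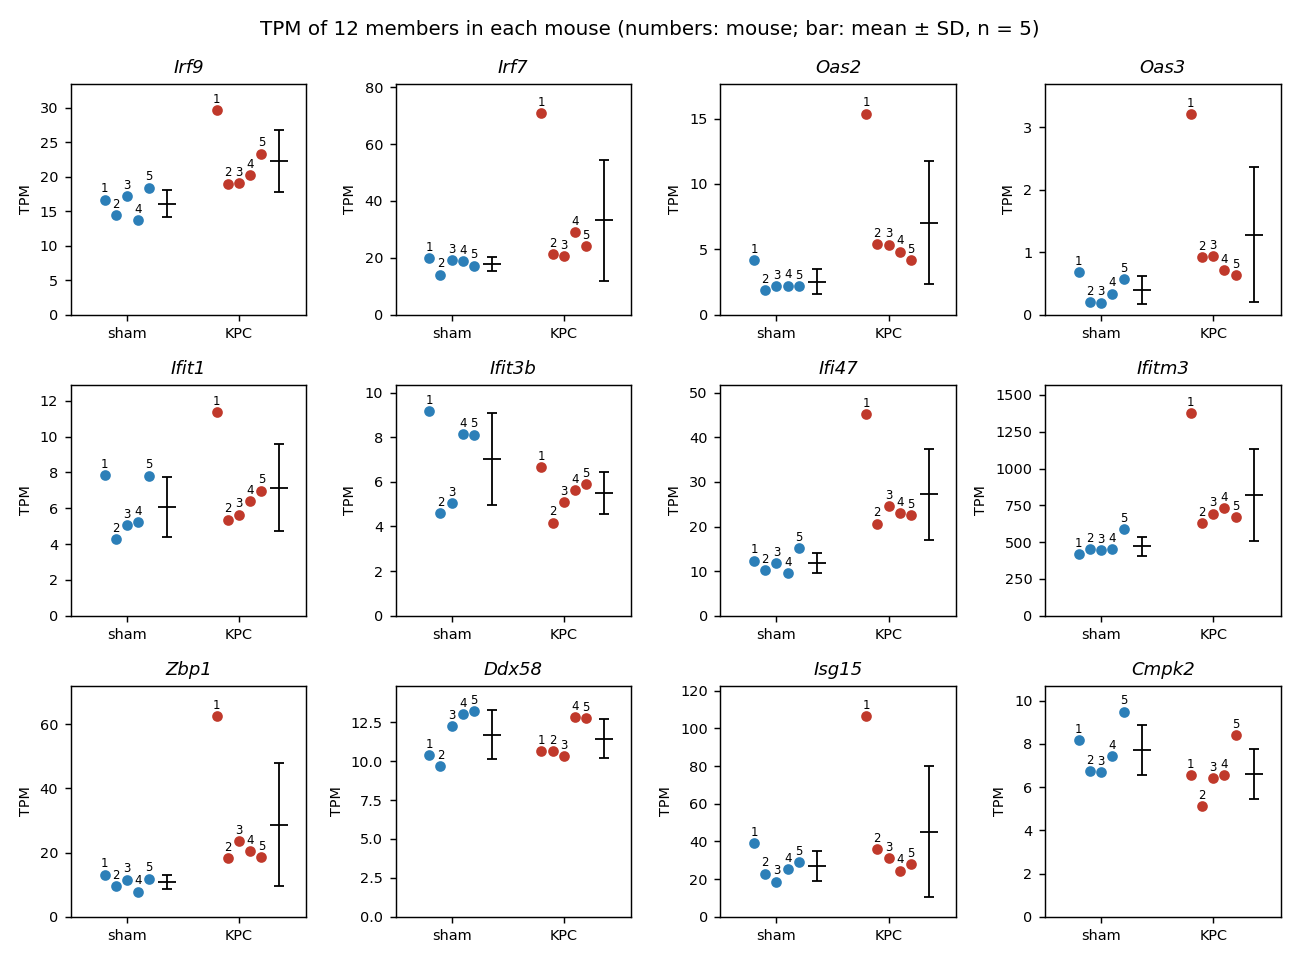
TPM (y axis, from 0) of 12 members in each of the 5 sham (blue) and 5 KPC (red) mice, with mouse numbers beside the points and the mean ± SD as a bar. Ifi47, Ifitm3, Zbp1 and Irf9 are separate between groups, while Ifit3b, Ddx58 and Cmpk2 overlap.

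The 9 other effectors had a median log2 difference of 0.47, and 3 had an unadjusted p under 0.05, all higher, against 7.61% of all tested genes. Ifitm3, which blocks the fusion of virus and endosome membranes, had TPM values of 418, 451, 447, 453 and 588 in sham mice 1 to 5 and of 1377, 627, 693, 730 and 667 in KPC mice 1 to 5. No KPC mouse lay within the sham range. The fold was 1.71 (95% interval 1.25 to 2.34), with a limma adjusted p of 0.184. Without KPC mouse 1 it rose by 0.55 ± 0.09 (SE) on the log2 scale, with a limma adjusted p of 0.0375. Trim30a, a ubiquitin ligase of the TRIM family, stood at 8.28 ± 0.669 against 13.5 ± 5.88 TPM (SD, n = 5), with no overlap and a log2 difference of 0.65. In normalized counts the groups barely separated, with KPC mouse 5 at 0.264 and sham mouse 1 at 0.255 above the sham mean on the log2 scale. Bst2, or tetherin, which holds budding virus on the cell surface, stood at 119 ± 15.3 against 169 ± 66.9 TPM (SD, n = 5) with a log2 difference of 0.47 and overlapping groups.

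Cmpk2, a mitochondrial nucleotide kinase that lies beside Rsad2, had the lowest difference among the effectors. It had TPM values of 8.19, 6.73, 6.70, 7.42 and 9.48 in sham mice 1 to 5 and of 6.54, 5.13, 6.43, 6.54 and 8.41 in KPC mice 1 to 5. The groups overlapped, KPC mouse 1 was among the lower ones, and the log2 difference was -0.19 ± 0.15 (SE; limma adjusted p = 0.588). Rsad2, which makes an RNA chain terminator, had a difference of 0.27, and Samd9l, a growth-restraining antiviral factor, one of 0.11. Rtp4 had 0.66, with SDs of 1.42 TPM in the sham group and 1.11 TPM in KPC mice around levels of 2.65 and 3.79 TPM. Mx1 and Mx2, dynamin-like GTPases, had differences of 0.49 and 0.31, which were -0.03 and -0.04 without KPC mouse 1. In C57BL/6 mice Mx1 carries a deletion and makes no working protein.

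The genes of ISG15 conjugation and of the PARP9 group had a median difference of 0.26. Of these 6 genes, 2 had an unadjusted p under 0.05, both higher, against 7.61% of all tested genes. Isg15, the ubiquitin-like modifier, had TPM values of 39.3, 22.9, 18.7, 25.3 and 29.1 in sham mice 1 to 5 and of 107, 35.8, 31.2, 24.6 and 28.1 in KPC mice 1 to 5. KPC mouse 1 stood at 2.59 times the next highest count, and the other KPC mice lay within the sham range. The log2 difference was 0.58 ± 0.39 (SE; limma adjusted p = 0.537), or 0.19 without KPC mouse 1. Usp18, which strips ISG15 and damps the type I receptor, had TPM values of 5.55, 3.68, 5.50, 5.65 and 6.33 in sham mice 1 to 5 and of 9.27, 4.62, 4.98, 4.43 and 5.26 in KPC mice 1 to 5. KPC mice 2 to 5 lay inside the sham range, and the log2 difference was 0.10 ± 0.24 (SE; limma adjusted p = 0.884).

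Herc6, the mouse ISG15 ligase, differed with a small spread between mice. It stood at 3.33 ± 0.393 TPM in the sham group and 4.56 ± 0.411 TPM in the KPC group (SD, n = 5) with no overlap, and its log2 difference of 0.49 ± 0.12 (SE) had a limma adjusted p of 0.150. Parp14, an ADP-ribosyltransferase, stood at 8.87 ± 0.864 against 11.1 ± 1.51 TPM (SD, n = 5), a difference of 0.35 ± 0.10 (SE; limma adjusted p = 0.189). KPC mouse 1 was not the highest for Parp14, and without it the difference was 0.36. Parp9 and Dtx3l, which form a complex and overlap on opposite strands, had 0.16 and 0.17. Without a stated strand setting, reads from this pair cannot be told apart where they overlap.

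The last group, 5 other interferon-induced genes, had a median difference of 0.78. Of these, 3 had an unadjusted p under 0.05, all higher, against 7.61% of all tested genes. Ifi47, a GTPase of the immunity-related family that answers strongly to interferon gamma, lies on the plus strand of chromosome 11 (49076587 to 49096974). It had TPM values of 12.3, 10.2, 11.9, 9.61 and 15.2 in sham mice 1 to 5 and of 45.3, 20.6, 24.5, 23.0 and 22.6 in KPC mice 1 to 5, and the lowest KPC mouse lay clear of the highest sham mouse. The fold was 2.27 (95% interval 1.61 to 3.21), with a limma adjusted p of 0.0795, the smallest of all members. Without KPC mouse 1, Ifi47 rose by 0.97 ± 0.14 (SE) on the log2 scale, with a limma adjusted p of 0.0238. Its exons overlap those of a same-strand olfactory receptor gene and an opposite-strand transcript.

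Ifi27l2a, a small mitochondrial membrane protein gene, was by far the most abundant member in TPM. It stood at 3356 ± 1366 TPM in the sham group and 6773 ± 2866 TPM in the KPC group (SD, n = 5), with a log2 difference of 1.03 ± 0.33 (SE; limma adjusted p = 0.252). It was high in KPC mice 1 and 2, at 10522 and 9005 TPM, while sham mouse 3 at 5512 TPM lay above 3 KPC mice. Ifi44 stood at 3.83 ± 0.679 against 6.58 ± 2.09 TPM (SD, n = 5), separate between groups, with a difference of 0.78 ± 0.21 (SE; limma adjusted p = 0.186). Xaf1, a pro-apoptotic gene, had 0.31, or 0.07 without KPC mouse 1. Ifi35, a partner of NMI, had TPM values of 32.9, 25.8, 37.0, 34.9 and 30.9 in sham mice 1 to 5 and of 47.4, 30.4, 36.2, 33.4 and 41.2 in KPC mice 1 to 5. The groups overlapped with a difference of 0.25 ± 0.15 (SE; limma adjusted p = 0.475).

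Most interferon genes were listed at 0 TPM. Of 21 listed ligand genes, 17 were listed at 0 in all 10 libraries, among them every interferon alpha gene in the list. Ifnb1, interferon beta, reached 0.121 TPM in 1 sham library and was listed at 0 in all KPC libraries. Ifng, interferon gamma, reached 0.188 TPM in the sham group and 0.162 TPM in the KPC group, with a lowest value of 0 in each. These levels were too low to test. A listed 0 need not mean that a gene was silent: Tyk2, a receptor kinase gene used by most cells, was also listed at 0 in 4 of 5 sham and 4 of 5 KPC libraries. Ifnar1 stood at 16.6 ± 0.380 against 16.9 ± 2.46 TPM and Ifnar2 at 81.8 ± 3.27 against 87.5 ± 5.93 TPM (SD, n = 5), with log2 differences of 0.05 and 0.13.

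Of 14 tested receptor and signalling genes, 4 had an unadjusted p under 0.05, all higher, with the smallest for Ifngr1, a chain of the interferon gamma receptor, at 87.8 ± 5.37 against 117 ± 27.6 TPM. In the other direction Ptpn11, a phosphatase gene, had the smallest p, with a log2 difference of -0.19. Of 15 tested genes that act in nucleic acid sensing upstream of interferon, 9 were higher at this level and 0 lower. Over all tested genes the shares were 7.61% higher and 5.91% lower. Tmem173, the gene of STING, stood at 6.01 ± 0.850 against 11.8 ± 1.74 TPM with no overlap between groups and a limma adjusted p of 0.0605. Traf3, an adaptor, had a log2 difference of -0.16. After adjustment 0 genes of either list passed with all mice, where 0.0493% of all tested genes were called higher. Without KPC mouse 1, Tmem173 and Trim25 of the sensing list passed, where 0.465% of all tested genes were called higher.

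Other interferon-regulated genes were also mostly higher in KPC mice before adjustment. Of 54 further interferon-stimulated genes tested, 24 had an unadjusted limma p under 0.05, all higher, with a median difference of 0.32. Sp100, a nuclear body gene, had the smallest p, at 39.2 ± 5.12 against 54.6 ± 6.59 TPM, and Mov10, an RNA helicase gene, the smallest in the other direction, with a difference of -0.23. Of 14 interferon-gamma-inducible GTPases, 12 were higher at this level, with a median of 0.54, and Tgtp1 stood at 5.40 ± 0.540 against 11.2 ± 3.60 TPM. Gbp4 alone lay below 0, at -0.24, and at 1.23 without KPC mouse 1, where it was listed at 0 in 1 library. For MHC class I chains and loading genes 7 of 11 were higher, with a median of 0.48, led by the immunoproteasome gene Psmb8 at 50.2 ± 6.87 against 89.1 ± 20.8 TPM, and Tapbp lay at -0.06. Over all tested genes 7.61% were higher and 5.91% lower at an unadjusted limma p under 0.05. No gene of these 3 lists passed after adjustment with all mice. Without KPC mouse 1, Slfn2 and Slfn5 among the further interferon-stimulated genes, Tgtp1 among the GTPases and Psmb8 in the MHC class I list passed, all higher. In that fit 0.465% of all tested genes were called higher.

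KPC mouse 1 did not lead every interferon list. For the GTPases the median deviation from the sham mean was 0.52 in KPC mouse 1, 0.49, 0.48 and 0.47 in KPC mice 2, 3 and 4, and 0.94 in KPC mouse 5. For the MHC class I list it was 0.54 in KPC mouse 1 and 0.52 in KPC mouse 5. For the OAS genes it was 2.73 in KPC mouse 1 and 0.90, 0.99, 0.59 and 0.41 in KPC mice 2 to 5, where sham mouse 1 stood at 0.55. For the IFIT genes KPC mouse 1 stood at 0.53 and sham mouse 1 at 0.44, and KPC mice 2 to 5 ran from -0.53 to -0.01.

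**Figure D5:**
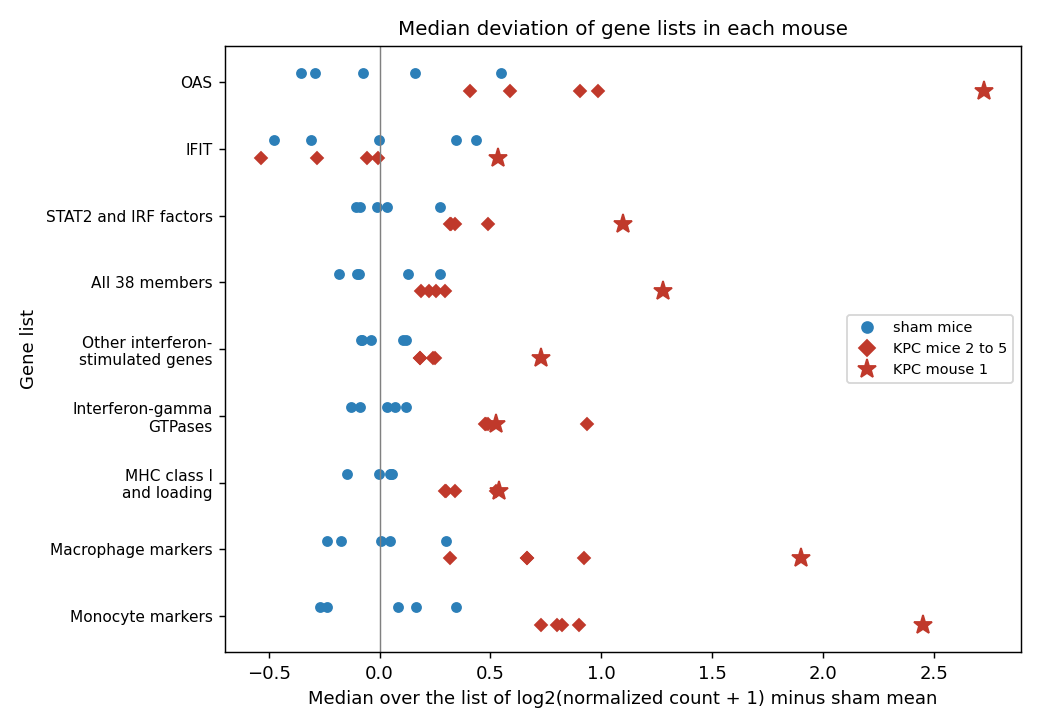
Median over each gene list of log2(normalized count + 1) minus the sham mean (x axis), for each mouse and list (y axis). KPC mouse 1 (star) is farthest right for the OAS genes, at 2.73, and for macrophage and monocyte markers, at 1.90 and 2.45, while KPC mouse 5 is farthest right for the interferon-gamma GTPases, at 0.94.

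Macrophage and monocyte markers, from cells that can express antiviral genes, summed higher in every KPC mouse than in any sham mouse. All 11 of 11 macrophage markers had a positive difference, and their summed level ran from 545 to 879 TPM in the sham group, from 954 to 1355 TPM in KPC mice 2 to 5 and to 2883 TPM in KPC mouse 1. Gene by gene only 3 of 11 separated, C1qa, C1qb and C1qc, against 2.75% of all tested genes. Most of the sum came from these 3, with means of 203, 164 and 150 TPM in the sham group and 464, 396 and 298 TPM in KPC mice. For 9 of 9 monocyte markers the difference was positive too, with sums of 76.8 to 122 TPM in sham, 148 to 208 TPM in KPC mice 2 to 5 and 738 TPM in KPC mouse 1. Only 2 of 9 separated gene by gene, Plac8 and F10. Plac8 was the largest part of the sum, with means of 47.6 TPM in the sham group and 212 TPM in KPC mice. Neutrophil markers summed to 15.2 to 62.1 TPM in sham, 25.3 to 80.5 TPM in KPC mice 2 to 5 and 292 TPM in KPC mouse 1, with KPC mice 4 and 5 inside the sham range. T cell markers summed to 7.52 to 11.4 TPM in the sham group and 13.3 to 19.2 TPM in KPC mice, though only 1 of 8 separated gene by gene. Natural killer cell markers were higher for 6 of 6 tested, with overlapping sums of 5.27 to 10.5 TPM in the sham group and 9.83 to 17.4 TPM in KPC mice. Red cell markers summed to 4748 to 12870 TPM in the sham group, 40718 TPM in KPC mouse 1 and 20280 TPM in KPC mouse 2, with the other KPC mice inside the sham range. B cell markers had a median log2 difference of -0.34, with 3 of 4 tested markers lower and overlapping sums. Skeletal muscle markers were lower for 7 of 7, with a median of -2.99 and sums of 44.2 to 3283 TPM in the sham group and 50.1 to 187 TPM in the KPC group. The part of these cells in the differences of the antiviral genes was not tested.

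Plasmacytoid dendritic cells, specialised producers of type I interferon, had 7 listed markers whose sum ran from 18.3 to 72.5 TPM in the sham group and from 19.1 to 31.4 TPM in the KPC group. Most of the sum came from Tcf4, with means of 19.3 and 20.9 TPM, and from Cox6a2, with means of 14.9 and 1.35 TPM. Cox6a2 is also a muscle gene and reached 47.3 TPM in the sham group. Siglech, their lectin, stood at 2.69 ± 1.38 against 2.47 ± 0.735 TPM (SD, n = 5), a log2 difference of 0.03, and Bst2 is also one of their surface markers. Adipocyte markers summed to 33613 to 40976 TPM in the sham group and 35200 to 43195 TPM in KPC mice. By gene, 4 of 8 adipocyte markers lay above 0 and 4 below, and 2 of those below had an unadjusted limma p under 0.05, Plin1 at -0.47 and Pparg at -0.56. Over all tested genes 5.91% were lower at this level. The list median in KPC mouse 1 was -0.39, below all sham mice (-0.12 to 0.16). Pancreatic acinar markers summed to 12.5 to 22.03 TPM in the sham group and 11.5 to 32.4 TPM in KPC mice. Nearly all of this was Cela1, with means of 16.5 and 18.7 TPM. Each other acinar marker averaged at most 0.0869 TPM in either group. Epithelial markers summed to 30.2 to 80.2 and 36.6 to 79.1 TPM, mostly keratins. Krt19, also listed as a mesothelial marker, averaged 42.8 and 35.4 TPM. Epcam was listed at 0 in 5 of 5 sham and 4 of 5 KPC libraries.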

How the data were processed

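RNA was measured in visceral fat of 5 sham and 5 KPC mice, grouped and numbered by the labels. The members and gene lists were chosen with earlier results of these data known. The authors deposited gene counts that they normalized, handled here as a signal, and TPM, a length-corrected share of transcripts, used for levels. Per the submitters' processing notes they used Salmon, DESeq, DESeq2 and build mm10. The sources used here give no versions, annotation or strand setting. The normalized counts are not whole (4.74% of values above 0 lie within 0.01 of a whole number), so no count model was run. They summed to 20941242 to 24449863 per mouse.

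Genes with a mean of at least 10 normalized counts entered a limma fit (limma 3.58.1, R 4.3.3) of log2(normalized count + 1) that let the variance follow the mean. The median SE of a log2 difference was 0.227 over the members and 0.172 over all tested genes. Log2 differences and folds are on this scale, which understates changes of low genes, and overlap of groups was read on normalized counts. TPM is given as mean ± SD. The rule for named genes gave full values for the 4 transcription factors, and for the members with the largest and smallest difference in each other role group. It added the smallest p in each direction of the pathway lists and 5 fixed pathway genes, of which 1 is not reported here. Others were named after their values were seen. The labels do not say what their replicate numbers mark, and p-values measure the spread between these samples. The fit was tested on simulated data. The alternatives covered the scale, pseudocount, filter, scaling, weights, blocks and single mice left out.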

Additional observations from a re-analysis of the deposited data

Results flagged for a closer look

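Within each group of 5 mice, a member was singled out where the gap between its extreme mouse and the nearest other took up more than 0.710 of the group's whole range on the log2 scale, which chance gives in about 1 of 20 groups. Of the 76 groups examined (38 members in each of 2 groups), 20 met this, 16 of them through a high value in KPC mouse 1 and 4 through sham mouse 1. The members were measured in the same mice, so these groups are not independent and their number cannot be set against 1 in 20. The number over all tested genes was not counted. In KPC mouse 1 the share of the range was 0.823 for Irf7, 0.733 for Ifit1, 0.785 for Oas1a, 0.767 for Oas2, 0.736 for Oas3, 0.837 for Oasl1, 0.822 for Mx2 and 0.72 for Usp18. It was 0.786 for Dhx58, 0.739 for Ifi44, 0.768 for Ifi47, 0.741 for Trim30a, 0.767 for Zbp1, 0.736 for Samd9l, 0.717 for Herc6 and 0.866 for Ifitm3. In sham mouse 1 it was 0.821 for Stat2, 0.865 for Oas2, 0.713 for Ifih1 and 0.781 for Parp9. All 4 values of sham mouse 1 were high. The genes of KPC mouse 1 come from every role group.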

How the results depend on the processing

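With all mice, limma called 7 genes higher and 1 lower among all tested genes, and 0 members. TPM with a pseudocount of 1 called 2 higher and 0 lower, and a fit with no variance trend called 2 higher. Sample weights, which give less weight to libraries with larger residuals, called 172 higher and 28 lower, and 7 members higher (Stat2, Oas2, Ifi47, Parp14, Zbp1, Herc6 and Ifitm3). The replicate block, with the number in the sample description as the block, called 3 genes higher, as did the first number of the title. Same-numbered mice correlated at 0.0051 to 0.191 in their deviations and 2 of 5 numbers correlated best with their own, so the numbers were not taken as pairing. The block changed no member's call.

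Leaving out 1 mouse at a time gave 1 to 66 genes higher, 1 to 4 lower, 0 to 2 members called and 7 to 14 members without overlap. The 66, the 4 and the 2 came without KPC mouse 1, and the 14 without sham mouse 1, where 3.72% of all tested genes had every KPC mouse above the sham mice. The median member difference ran from 0.20 to 0.54, and over the other settings from 0.33 to 0.48. Of 758 values of single members over 20 settings, 731 kept direction and side of the threshold, 9 passed it in addition, and 18, from 5 members, changed sign. Ifit2 was at -0.022 in TPM and -0.081 with the title number, Ddx58 at -0.026 and -0.015, and Usp18 at -0.013 with sample weights. Over single mice left out, Ifit2 ran from -0.14 to 0.13, Mx1 from -0.031 to 0.71, Mx2 from -0.045 to 0.56, Usp18 from -0.11 to 0.20 and Ddx58 from -0.056 to 0.037. The cause was not tested.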
